A study of Mus musculus with 4 samples.

Results

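The genes described here are 10 mouse genes of the absorptive intestinal cell. They are the brush border enzyme genes Mep1a, Mep1b, Dpp4, Anpep, Mgam and Car4, the vitamin B12 receptor gene Cubn, and the enterocyte genes Vil1, Cdh17 and Fabp2. All probe sets annotated to these symbols were taken, which gave 13 of the 45037 probe sets without controls and 10 of 17097 named genes. The genes were selected on their differences between the genotypes in log2 expression on these same arrays, together with their known roles. Their genotype differences, and the p-values a fit over all genes gives them, are therefore a description and no test of the choice.

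The brush border is the layer of actin-filled microvilli on the luminal face of enterocytes, the absorptive cells of the intestine. Its membrane carries enzymes that finish digestion at the cell surface: peptidases that trim peptides and disaccharidases that release glucose. Carrier and receptor proteins take up the products and vitamins there, and the set of these proteins changes along the intestine and as cells leave the crypt.

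RNA was measured on 4 Affymetrix arrays from organoids, which are 3D cultures, of mouse colon adenoma on a C57BL/6 background. Of the 2 genotypes, Gata6 null/Apc null (VillinCreERT2Gata6fl/flApcfl/fl) and Apc null (VillinCreERT2Gata6+/+Apcfl/fl), each contributed 1 array to batch A and another to batch B. Both were labelled as lacking the Wnt pathway suppressor Apc, and both carried a tamoxifen-inducible Cre driven by the promoter of Vil1, a gene of this set that is active in intestinal epithelium. Cultures ran for 7 days, with 50 ng/ml of EGF, the epidermal growth factor, among their additives. GATA6 is a zinc finger transcription factor of the endoderm, and the comparison asks which genes depend on it in adenoma cells. The labels speak of biological replicates without naming separate mice, so p-values measure only the spread between these cultures.

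Gata6 itself read 9.37 and 9.40 log2 units in Gata6 null/Apc null arrays, against 8.89 and 8.61 in Apc null arrays, at its brighter probe set. It was thus not lower where the label says it was deleted, and the place of the probe set relative to the deleted exons is not known here. Every direction below therefore rests on the labels, and an array called Gata6 null/Apc null is one labelled so. Apc read 8.34 and 8.14 in Gata6 null/Apc null arrays and 8.35 and 8.34 in Apc null arrays, so it was bright in both genotypes labelled as lacking it. The place of its probe sets relative to the deleted part is not known here either. All 6 epithelial markers were bright on every array, with a summed level of 14.03 and 13.99 log2 units in Gata6 null/Apc null arrays and 14.14 and 14.11 in Apc null arrays. Of the 8 fibroblast markers 6 were under 4.45 log2 units, the filter level for testing. So were 3 of the 6 endothelial markers and 4 of the 7 immune markers with a probe set. That level was the 40th percentile of the means of all probe sets without controls. Ptprc, the general leukocyte marker, read 3.16 and 3.25 in Gata6 null/Apc null arrays and 3.07 and 3.12 in Apc null arrays. The summed immune level was nevertheless lower in Gata6 null/Apc null arrays, at 7.67 and 8.19 against 10.50 and 11.30 in Apc null arrays. The marker called lower was the lysozyme gene Lyz2, with 6.51 and 6.16 in Gata6 null/Apc null arrays, against 10.36 and 11.14 in Apc null arrays. Lyz2 made up most of the summed level in Apc null arrays. Cd68 and Cd74, the other immune markers tested, were not called. The Lyz2 probe set has probes that may bind other transcripts. The summed level of the 6 goblet cell markers was 10.77 and 11.37 in Gata6 null/Apc null arrays and 11.95 and 11.79 in Apc null arrays. The part of these marker differences in the results below was not tested.

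The 250 bases before the gene start are shown for Cubn, which had the largest positive difference of the set, for Mgam and Mep1a, which hold the most GATA motif letters, and for Vil1, whose promoter drives the Cre. The sequences are from RefSeq on GRCm38.p6, where 8 of the 10 genes had a window; Mep1b and Cdh17 are named only. Capitals mark the letters AGATAA or AGATAG or TGATAA or TGATAG, the sites GATA factors are known to bind, or their reverse complements. Matches on both strands were counted, and no match overlapped another.
Cubn, GRCm38.p6 chr2:13491877-13492126, minus strand: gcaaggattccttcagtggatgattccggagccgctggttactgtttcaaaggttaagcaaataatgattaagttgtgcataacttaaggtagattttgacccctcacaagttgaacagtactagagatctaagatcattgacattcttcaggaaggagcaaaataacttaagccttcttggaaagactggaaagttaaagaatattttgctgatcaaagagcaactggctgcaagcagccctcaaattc
Mgam, GRCm38.p6 chr6:40628581-40628830, plus strand: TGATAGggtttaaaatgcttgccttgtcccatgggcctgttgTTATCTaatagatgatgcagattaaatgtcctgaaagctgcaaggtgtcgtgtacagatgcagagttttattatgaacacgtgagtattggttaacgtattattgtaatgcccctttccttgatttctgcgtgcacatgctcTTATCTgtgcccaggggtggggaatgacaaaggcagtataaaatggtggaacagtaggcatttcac
Mep1a, GRCm38.p6 chr17:43502774-43503023, minus strand: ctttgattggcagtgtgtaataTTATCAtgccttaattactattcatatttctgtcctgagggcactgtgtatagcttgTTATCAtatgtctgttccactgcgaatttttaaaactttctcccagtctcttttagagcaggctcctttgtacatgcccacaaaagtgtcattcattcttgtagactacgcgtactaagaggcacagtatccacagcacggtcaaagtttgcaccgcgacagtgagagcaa
Vil1, GRCm38.p6 chr1:74409134-74409383, plus strand: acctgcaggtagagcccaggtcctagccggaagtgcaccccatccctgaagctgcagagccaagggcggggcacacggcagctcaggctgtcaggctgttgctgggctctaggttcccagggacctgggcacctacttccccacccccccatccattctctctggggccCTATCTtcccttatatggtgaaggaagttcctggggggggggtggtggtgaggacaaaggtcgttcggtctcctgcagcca
Mgam held 3 matches, beginning at -250, -208 and -66 from the gene start, and Mep1a held 2, at -228 and -171. Vil1 held 1 at -81 and Dpp4 held 1 at -32. Cubn, Anpep, Fabp2 and Car4 held none in these 250 bases. Of all 32851 windows 26.5% held at least 1 match, so 4 of 8 is a count from a common motif. The letters CCATAAA, bound by CDX factors, were in 2.4% of all windows and in 0 of the 8, and CAAAGTCCA, bound by HNF4 factors, were in 0.4% of all windows and in 0 of the 8. A match is a run of letters and not a site that was shown to be bound.

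Of the 10 genes, Mep1b fell and Cubn had a difference of nearly the same size upwards, while the other genes differed by less than 1 log2 unit. With limma, a linear model with a spread estimate shared across genes, and a Benjamini-Hochberg adjusted p under 0.05 over all genes, 1 of the 9 genes tested was called. It was Mep1b, where 0.648% of all 11874 genes were called, 0.126% of them lower and 0.522% higher. Those 9 genes passed a filter on the mean over all arrays, and Car4 did not. Mep1b and Fabp2 passed it only through their Apc null arrays. With the batch letter as a block, which compares the genotypes within each batch, 4 of 9 were called, Cubn upwards and Mep1b, Mgam and Fabp2 downwards, where 6.88% of all genes were called, 3.91% higher and 2.97% lower. In the same fit over all 45037 probe sets, 1 of the 13 was called, Mep1b (limma adjusted p = 0.0386), where 0.129% of probe sets were called, 0.109% higher and 0.02% lower. With the block, both Cubn probe sets were higher and those of Mep1b and Mgam lower, where 3.24% of probe sets were called, 1.85% higher and 1.39% lower. An absolute difference of 1 or more was reached by 2 of the 9 genes, Mep1b and Cubn, and by 5.1% of all genes. The arrays of the genotypes did not overlap for 7 of the 9 genes, as for 32% of all genes. The median difference of the 9 genes was -0.16 log2 units and that of all genes -0.03. In RNA from whole cultures, fewer cells of a type and less RNA per cell cannot be told apart. All differences are Gata6 null/Apc null minus Apc null, and a level of one probe set cannot be set against that of another.

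**Figure D1:**
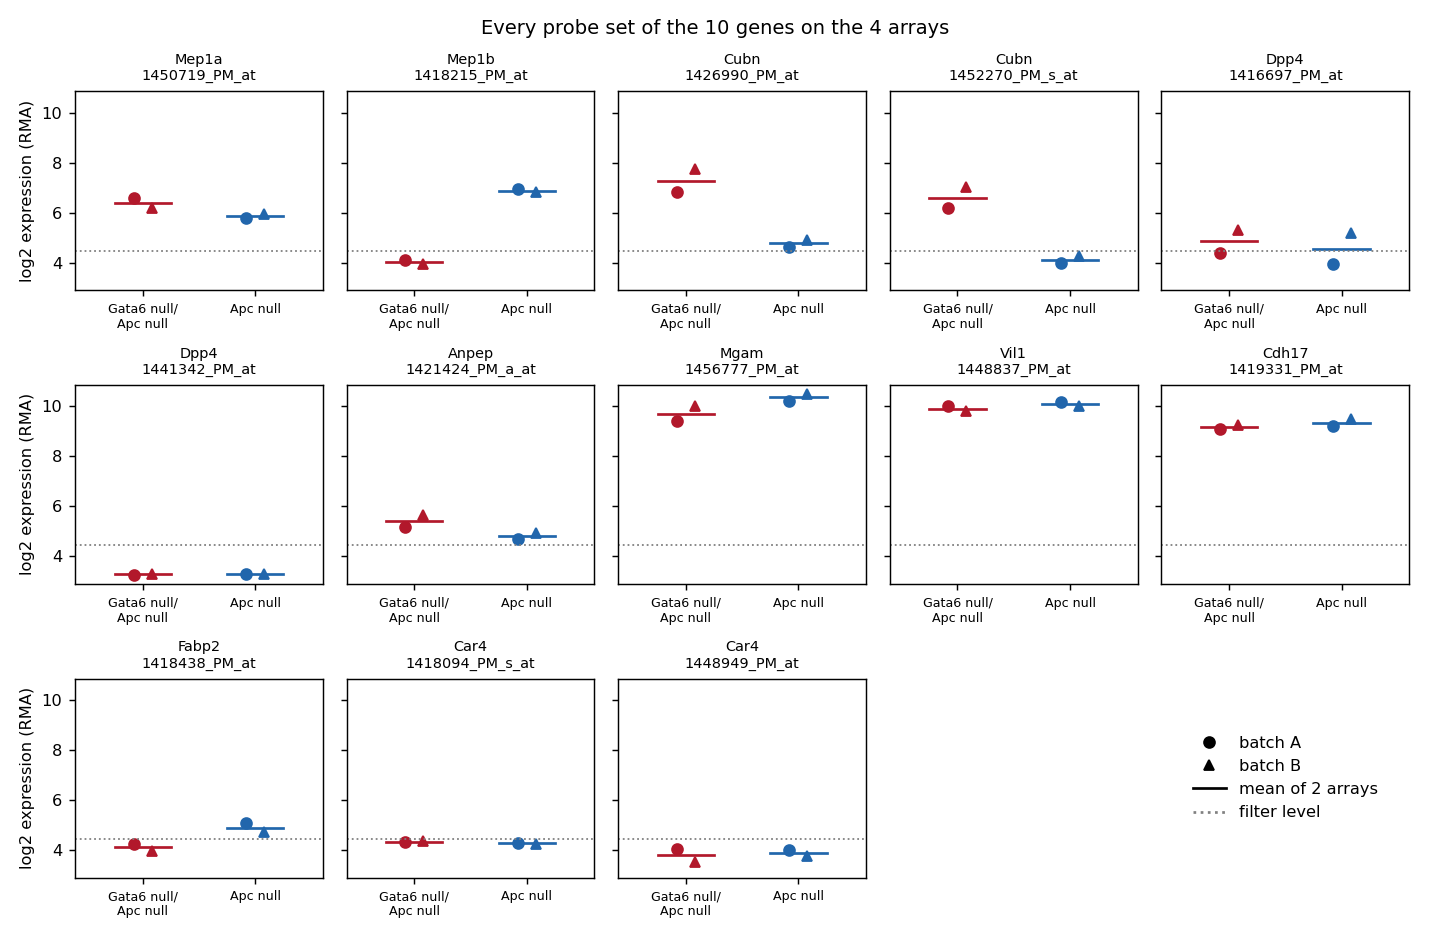
Log2 expression (RMA) of the 13 probe sets of the 10 genes, with a point per array (circle, batch A; triangle, batch B), a line for the mean of the 2 arrays of a genotype, and the filter level of 4.45 dotted. The Gata6 null/Apc null points of Mep1b lie under the filter level at 4.09 and 3.93, and those of Cubn lie above all Apc null points at both probe sets.

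Among the peptidase genes, the genes of the meprin subunits had differences of opposite sign. Mep1b encodes meprin beta, a zinc metalloprotease anchored in the microvillus membrane. It read 4.09 and 3.93 log2 units in Gata6 null/Apc null arrays, against 6.93 and 6.84 in Apc null arrays. Both values of the first genotype lie below the filter level, close to the array floor, and far under both Apc null values. Mep1b decreased by 2.87 on the log2 scale (SE 0.18, limma adjusted p = 0.0142), which is 7.33-fold lower. Within batches the difference was -2.84 (A) and -2.90 (B). Because one side is near the floor, the size of this fold depends on that floor.

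Mep1a encodes meprin alpha, the partner subunit, which is held at the membrane by meprin beta or secreted. It read 6.57 and 6.17 log2 units in Gata6 null/Apc null arrays and 5.77 and 5.94 in Apc null arrays. The Gata6 null/Apc null arrays were the higher ones without overlap, but the gap of batch B was narrow. The log2 difference was 0.52 (SE 0.25, limma adjusted p = 0.813). Within batches it was 0.80 (A) and 0.23 (B), and without the batch A array of Gata6 null/Apc null it was 0.32.

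Dpp4 encodes dipeptidyl peptidase 4, which removes dipeptides ending in proline or alanine and inactivates incretin hormones. At its brighter probe set it read 4.39 and 5.32 log2 units in Gata6 null/Apc null arrays, and 3.93 and 5.17 in Apc null arrays. Batch B was high and batch A low in both genotypes, and the genotypes overlapped. The log2 difference was 0.31 (SE 0.51, limma adjusted p = 1.00) and turned to -0.31 without the batch A array of Apc null and to -0.16 without the batch B array of Gata6 null/Apc null. The other Dpp4 probe set read between 3.26 and 3.31 on all arrays, under the filter level, and gives no information on the gene.

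Anpep encodes aminopeptidase N, which takes single amino acids from the start of peptides. It read 5.16 and 5.67 log2 units in Gata6 null/Apc null arrays, against 4.72 and 4.94 in Apc null arrays. Each Gata6 null/Apc null value was above both Apc null values. The log2 difference of 0.59 (SE 0.24) missed the threshold in limma without the block (adjusted p = 0.673) and with it (0.115). It was 0.33 without the batch B array of Gata6 null/Apc null and 0.84 without the batch A array of Gata6 null/Apc null, so its size depends on single arrays.

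Mgam encodes maltase-glucoamylase, the disaccharidase that releases glucose from the ends of starch fragments. It read 9.40 and 10.02 log2 units in Gata6 null/Apc null arrays, against 10.22 and 10.50 in Apc null arrays. It was bright on all arrays, lower in Gata6 null/Apc null than in Apc null within each batch, and higher on each batch B array than on the batch A array of the same genotype. The log2 difference was -0.65 (SE 0.25, limma adjusted p = 0.631, and 0.0232 with the block). Within batches it was -0.82 (A) and -0.49 (B), and without the batch A array of Gata6 null/Apc null it was -0.34.

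Cubn encodes cubilin, the large receptor for vitamin B12 bound to intrinsic factor, known from the ileum and the kidney tubule. Its brighter probe set read 6.81 and 7.75 log2 units in Gata6 null/Apc null arrays, against 4.61 and 4.92 in Apc null arrays. Its other probe set, which has probes that may bind other transcripts, read 6.17 and 7.03 in Gata6 null/Apc null arrays, against 4.0 and 4.25 in Apc null arrays. Both probe sets show the same order of the arrays, with batch B above batch A within each genotype. The log2 difference at the brighter probe set was 2.51 (SE 0.38), which is 5.71-fold. Within batches the log2 difference was 2.20 (A) and 2.83 (B). Cubn missed the limma threshold (adjusted p = 0.105) and passed with the block (0.00293). Leaving out the batch A array of Gata6 null/Apc null also brought it past the threshold, at 2.99 (adjusted p = 0.0253). At the other probe set the difference was 2.47, and the Apc null values there were under the filter level.

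Vil1 encodes villin, which bundles the actin filaments inside microvilli. It read 10.00 and 9.82 log2 units in Gata6 null/Apc null arrays, against 10.17 and 10.03 in Apc null arrays. The genotypes nearly met, with a gap that was small against the spread within each. The log2 difference was -0.19 (SE 0.15, limma adjusted p = 1.00). Cdh17 encodes liver-intestine cadherin, which joins enterocytes at their sides. It read 9.10 and 9.26 in Gata6 null/Apc null arrays and 9.20 and 9.48 in Apc null arrays, so the genotypes overlapped, and the log2 difference was -0.16 (SE 0.19, limma adjusted p = 1.00). With 1 array left out at a time, the difference ran from -0.28 to -0.10 for Vil1 and from -0.30 to -0.03 for Cdh17. Both genes were bright on every array.

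Fabp2 encodes the intestinal fatty acid binding protein of enterocyte cytoplasm. It read 4.27 and 3.96 log2 units in Gata6 null/Apc null arrays, against 5.07 and 4.71 in Apc null arrays. Only the Apc null arrays were above the filter level, so Fabp2 was tested only because of them and the size of its difference depends on the array floor. The log2 difference was -0.78 (SE 0.19, limma adjusted p = 0.307, and 0.0270 with the block). In the fit over all probe sets the adjusted p with the block was 0.0537. Within batches the difference was -0.80 (A) and -0.75 (B). Car4 encodes a carbonic anhydrase tied to the apical membrane by a lipid anchor, and is known as a gene of the surface colonocyte. Both of its probe sets were dim, at 3.54 to 4.38 in Gata6 null/Apc null arrays and 3.79 to 4.29 in Apc null arrays. Their differences were 0.07 and -0.10, so at this brightness no difference was detectable.

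**Figure D2:**
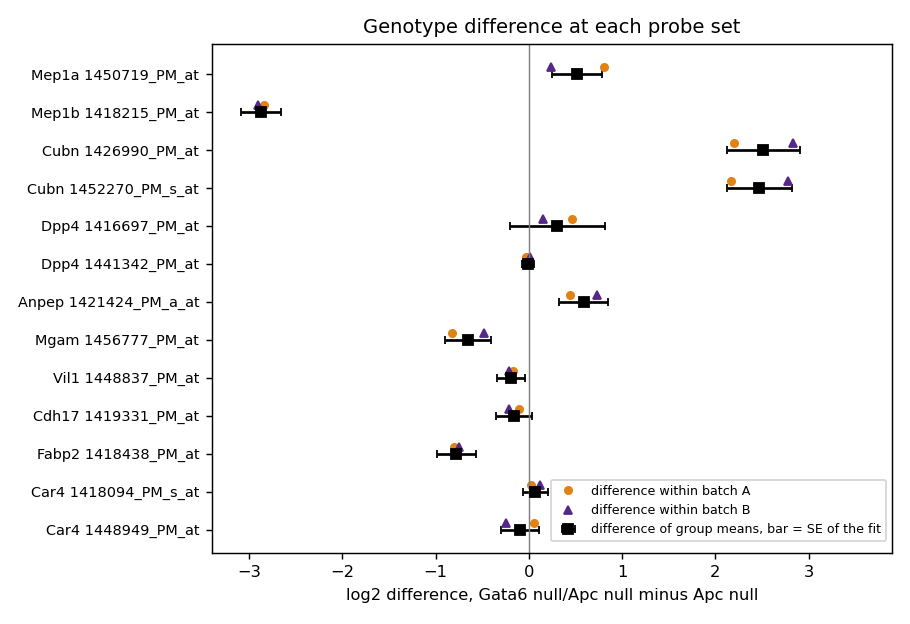
Log2 difference, Gata6 null/Apc null minus Apc null, at each of the 13 probe sets (square, difference of the means with the SE of the fit over all probe sets; circle, batch A; triangle, batch B). The single Mep1b probe set lies near -2.87, both Cubn probe sets lie near 2.5, and the rest lie between -0.78 and 0.59.

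**Figure D3:**
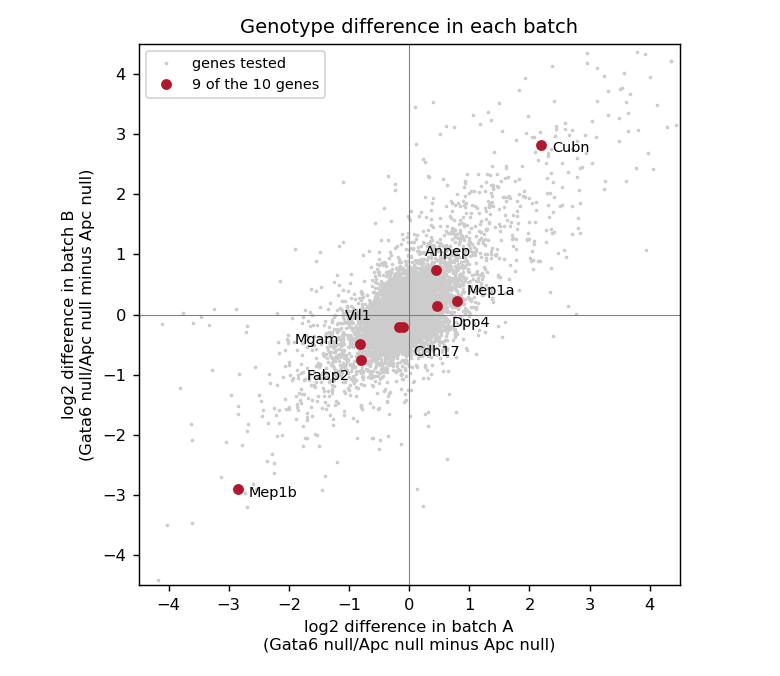
Log2 difference between the genotypes in batch A (horizontal) and in batch B (vertical) for all 11874 genes tested (grey) and for 9 of the 10 genes (red); 21 genes lie outside the axes. All 9 have the same sign in both batches, as do 63.4% of all genes, and Mep1b and Cubn lie farthest from zero among the 9.

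The batch comparison was not part of how the genes were chosen. With the genotype in the model, 2 of the 9 genes were higher in batch B and none were lower, where limma called 16.6% of all genes, 7.53% higher and 9.12% lower. Dpp4 rose to 5.32 and 5.17 log2 units in batch B (Gata6 null/Apc null and Apc null arrays), against 4.39 and 3.93 in batch A. Both batch A values were under the filter level, so Dpp4 was tested only because of its batch B values and the size of its difference depends on the array floor. That difference was 1.08 (SE 0.16, limma adjusted p = 0.0149), beside a genotype difference of 0.31. Mgam was higher by 0.45 (SE 0.11, adjusted p = 0.0423). Cubn differed by 0.63 (SE 0.22) in the same direction and missed the threshold (limma adjusted p = 0.106). Mep1b differed by -0.13 (SE 0.17, limma adjusted p = 0.654). Without the genotype in the model neither Dpp4 (adjusted p = 0.127) nor Mgam (0.509) passed. With 1 prior spread for all genes, and not one that follows the mean level, Mgam was not called either (limma adjusted p = 0.133).

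**Figure D4:**
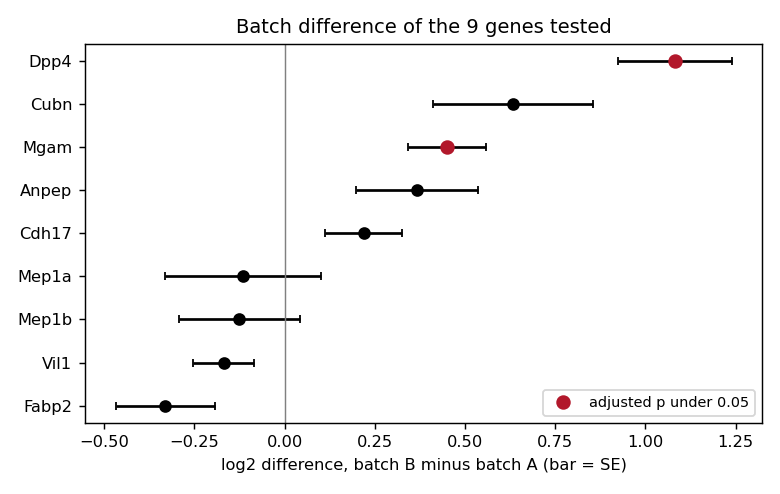
Log2 difference, batch B minus batch A, for the 9 genes tested, with the SE of the fit. Dpp4 at 1.08 and Mgam at 0.45 passed an adjusted p of 0.05 (red), and Fabp2 at -0.33 had the largest difference in the other direction.

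Other genes of the enterocyte and colonocyte were read from 8 lists, of which 102 genes in all were tested. None passed limma's threshold without the block. An unadjusted p under 0.05 was reached by 25 of the 102 genes and by 946 of all 11874 genes, a smaller share. With the block, 2 were higher and 20 lower, where 3.91% of all genes were higher and 2.97% lower. The median difference of the 102 genes was -0.23 against -0.03 for all genes. The lists were made with earlier results of these arrays known, so their counts are no separate evidence.

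Of 8 other brush border hydrolase genes tested, none passed limma's threshold without or with the block, where 0 and 1 had an unadjusted p under 0.05. Their median difference was -0.03. The members with the smallest p were the trehalase gene Treh (-0.36, SE 0.17, limma adjusted p = 0.801) and Xpnpep2, a membrane aminopeptidase P (-0.65, SE 0.32, limma adjusted p = 0.818). Treh read 4.59 and 4.24 in Gata6 null/Apc null arrays and 4.77 on both Apc null arrays. It passed the filter only through its Apc null arrays, so the size of its difference depends on the floor. Mme, the surface peptidase neprilysin, differed by -0.02, and Enpep, aminopeptidase A, read 3.41 to 3.49 in Gata6 null/Apc null arrays and 3.46 to 3.63 in Apc null arrays, under the filter level.

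The direct partner of cubilin on these arrays was too dim to be tested at the gene level. Amn, whose product amnionless carries cubilin to the surface, read 4.30 and 4.34 log2 units in Gata6 null/Apc null arrays and 4.22 and 4.28 in Apc null arrays, under the filter level. Of 5 genes tested for vitamin B12 uptake and transport, none passed limma's threshold with or without the block, and none had an unadjusted p under 0.05 in either fit. The differences ran from -0.12 to 0.33, with Cd320, the receptor for transcobalamin, at 0.33 (SE 0.58, limma adjusted p = 1.00), and Lrpap1, a receptor chaperone, at 0.12 (SE 0.22).

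Microvillus structure genes had a median of -0.33 over 20 genes, beside -0.19 for Vil1. None passed limma's threshold without the block (3 had an unadjusted p under 0.05), and 5 were lower and none higher with it. Anks4b, a scaffold of the complex that links microvilli at their tips, differed by -1.08 (SE 0.23, limma adjusted p = 0.219, and 0.0243 with the block). Its partner Cdhr5, a protocadherin at the microvillus tip, differed by -0.99 (SE 0.23, limma adjusted p = 0.270, and 0.0192 with the block). Of the epithelial adhesion genes, 3 of 14 were lower with the block and none without it, where 3 had an unadjusted p under 0.05 in limma. Those lower with the block were the desmosomal cadherin gene Dsc2 (-0.79, limma adjusted p = 0.0145 with the block) and 2 tight junction genes. These were Ocln (-0.71, limma adjusted p = 0.023 with the block) and Cldn4 (-0.81, limma adjusted p = 0.0327 with the block). Cdh1, the classical epithelial cadherin beside Cdh17, differed by -0.23 (SE 0.13, limma adjusted p = 0.906).

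Colonocyte surface and carbonic anhydrase genes had the lowest median of the 8 lists, at -0.48 over 20 genes. None passed limma's threshold without the block (10 had an unadjusted p under 0.05), and with it 1 was higher and 8 lower. Guca2a, which encodes the peptide guanylin that regulates salt and water secretion, read 6.02 and 5.31 log2 units in Gata6 null/Apc null arrays, against 8.72 and 8.51 in Apc null arrays. Its difference was -2.95 (SE 0.33, limma adjusted p = 0.0530, and 0.00110 with the block). Car13, a cytosolic carbonic anhydrase, differed by -1.53 (SE 0.20, limma adjusted p = 0.0784, and 0.00325 with the block). The cytosolic carbonic anhydrases Car1 and Car2, named beside the dim Car4, differed by -1.73 (SE 0.52, limma adjusted p = 0.421, and 0.000381 with the block) and -0.42 (SE 0.13, limma adjusted p = 0.422, and 0.0232 with the block). The difference of Car1 was -1.70 within batch A and -1.75 within batch B. The most negative difference of the list, taken up after its values were seen, was that of Aqp4, a water channel, which read 5.77 and 7.81 in Gata6 null/Apc null arrays, against 10.48 and 9.56 in Apc null arrays (-3.24, SE 0.75, limma adjusted p = 0.265, and 0.0350 with the block). The 1 gene that was higher with the block was Slc9a3, a sodium-proton exchanger of the brush border (1.53, SE 0.41, limma adjusted p = 0.348, and 0.0381 with the block). Slc9a3 read 5.99 and 4.77 in Gata6 null/Apc null arrays and at most 3.88 in Apc null arrays, which is under the filter level, so it was tested only because of its Gata6 null/Apc null values and the size of its difference depends on the floor.

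Lipid handling genes had a median of -0.22 over 12 genes and none passed limma's threshold in either fit, with 3 at an unadjusted p under 0.05 without the block. Apob, the scaffold of chylomicrons, differed by -0.68 (SE 0.18, limma adjusted p = 0.341). It read 4.54 and 4.34 in Gata6 null/Apc null arrays and passed the filter only through its Apc null arrays. The size of its difference thus depends on the floor. Clps, a lipase cofactor, differed by -0.64 (SE 0.20, limma adjusted p = 0.467). A dimmer Clps probe set, with a mean under the filter level, differed by -1.66. In the fit over all probe sets its limma adjusted p was 0.0851, and 0.0020 with the block. It read 3.69 and 3.31 in Gata6 null/Apc null arrays, near the floor, against 5.17 and 5.14 in Apc null arrays. Fabp1, the liver-type relative of Fabp2, was under the filter level on every array. Among 10 nutrient transporters the median was -0.27, with none past limma's threshold without the block (2 had an unadjusted p under 0.05) and 1 lower with it. That gene was Slc7a7, a subunit of a basolateral exporter of cationic amino acids (-1.03, SE 0.27, limma adjusted p = 0.326, and 0.0160 with the block). The glutamate transporter gene Slc1a1 came next by p (-1.04, SE 0.34, limma adjusted p = 0.491).

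Transcription factor genes of the enterocyte had a median of -0.33 over 13 tested. None passed limma's threshold without the block (4 had an unadjusted p under 0.05), and with it 3 were lower and 1 higher, the last being Gata6. Hnf4g, a nuclear receptor of the enterocyte, read 4.73 and 5.19 log2 units in Gata6 null/Apc null arrays, against 7.23 and 6.54 in Apc null arrays. Its difference was -1.92 (SE 0.34, limma adjusted p = 0.140, and 0.0181 with the block). Cdx2, the homeobox factor that sets intestinal identity, read 7.29 and 8.11 in Gata6 null/Apc null arrays, against 9.13 and 9.41 in Apc null arrays, and differed by -1.57 (SE 0.34, limma adjusted p = 0.228, and 0.00545 with the block).

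**Figure D5:**
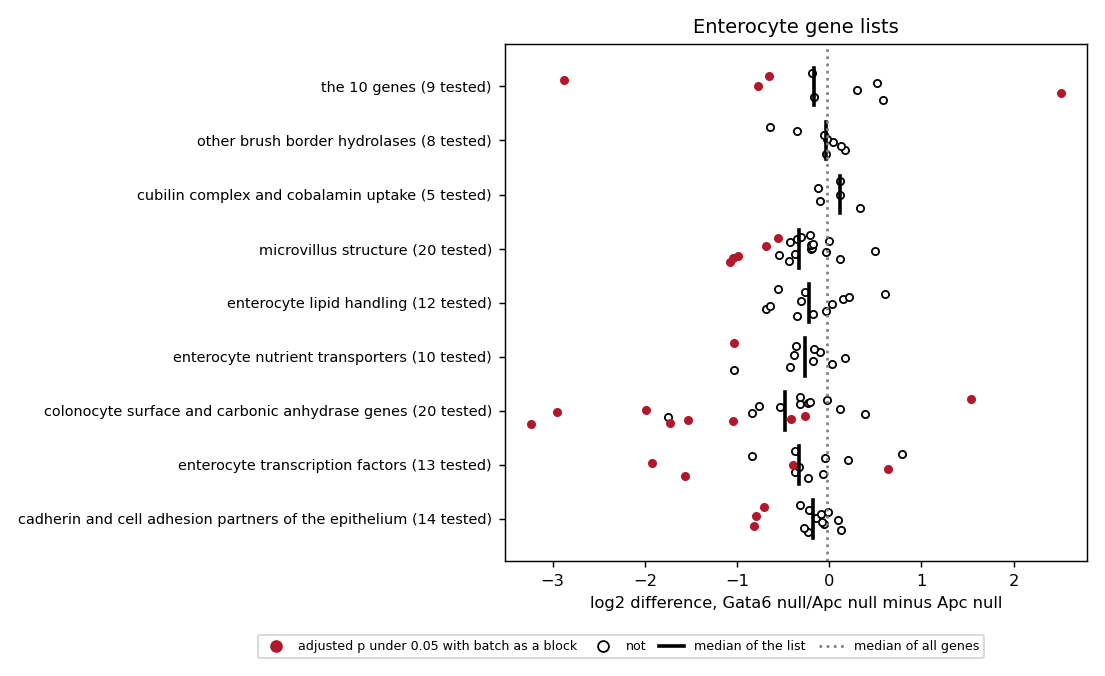
Log2 difference, Gata6 null/Apc null minus Apc null, of each tested gene of the set and of the 8 lists (1 point per gene; red, adjusted p under 0.05 with the batch as a block), with the median of each list and, dotted, of all genes. The colonocyte list has the lowest median, at -0.48, and the hydrolase list a median of -0.03.

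The genes whose pattern over the 4 arrays was closest to Mep1b and Cubn were found by the Euclidean distance after each gene was centred on its own mean. Genes whose symbols are clone, accession or predicted-gene names were left out of this search. Closest to Mep1b were the glutathione transferase gene Gsta2 (distance 0.133 log2 units, difference -2.85, with probes that may bind other transcripts), the semaphorin receptor gene Nrp1 (distance 0.313, difference -2.73) and the retinaldehyde dehydrogenase gene Aldh1a1 (distance 0.367, difference -2.71). Closest to Cubn were Hpgds, a prostaglandin D synthase (distance 0.188, difference 2.51), Fxyd6, of a family that regulates the sodium pump (distance 0.263, difference 2.40), and the growth factor gene Fgf9 (distance 0.289, difference 2.48). With 4 arrays a like pattern is a description of these arrays.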

How the data were processed

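The authors deposited a log2 value for each probe set; the submitters' processing notes name RMA and affy, without versions. RMA subtracts background, normalizes quantiles across arrays and summarises probes, which removes array-wide shifts and compresses dim values. Per the labels' protocols, 25 ng of total RNA was amplified before labelling. Of 45141 probe sets, 104 controls were left out. Platform annotation named 1 gene for 28898 probe sets, several for 551 (unused) and none for 15588; 28689 were checked by Entrez identifier against RefSeq (GRCm38.p6), with 0 symbols changed.

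For each gene the probe set of highest mean level was kept. Genes with a mean under 4.45 log2 units, the 40th percentile of the means of all probe sets without controls, were not tested. This left 11874 of 17097 named genes. The genotype test was lmFit and eBayes with a trend, from limma 3.58.1 under R 4.3.3, with Benjamini-Hochberg adjustment over all 11874 genes, and again over all probe sets without a filter. The batch was compared with the genotype as a covariate. Residual degrees of freedom were 2, or 1 with the batch as a block. The pairing comes from the letter in the labels' batch characteristic, and the batch differences of the genotypes correlated at 0.675 across genes. Tests were checked on simulated data, where false calls were a larger share of the calls with the batch term than without it. The precision is limited by the number of arrays.

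The genes and lists were chosen with earlier results of these data known. Named genes were the 10 genes, their direct partners, Gata6, up to 3 genes per list and direction past the threshold or else the 2 with the smallest p, and the 3 nearest patterns for genes that differed by 1 or more.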

Additional observations from a re-analysis of the deposited data

How the results depend on the processing

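At the gene level Mep1b passed under every alternative in which it was tested. With the filter at the 60th percentile, Mep1b, Dpp4, Anpep and Fabp2 of the 9 genes were left out as too dim. Of those still tested, Mep1a, Cubn, Mgam, Vil1 and Cdh17, the count called was 0 (1 had an unadjusted p under 0.05 in limma). With the batch as a block, the counts were 4 of the 9 genes, 22 list genes, 817 genes in all and 1458 probe sets, against 1, 0, 77 and 58 in limma without it; all 77 genes remained. The list count was 1 without a filter and 1 with the filter at the 60th percentile, in both cases Guca2a. Leaving out 1 array at a time gave 1 to 2 of the 9 genes, 0 to 2 list genes, 33 to 130 genes in all and 0 to 100 probe sets; the lowest gene count, 33, came without the batch A array of Apc null, and leaving out the batch B array of that genotype gave 48. The probe set count was 0 when either array of Gata6 null/Apc null was left out (2348 without batch A and 2524 without batch B at an unadjusted limma p under 0.05). It was also 0 without a trend in the moderation (2468 at an unadjusted p under 0.05), so Mep1b was not called at the probe set level in these cases. The difference of Dpp4 ran from -0.31 to 0.92 over these, turning sign without the batch A array of Apc null (-0.31) or the batch B array of Gata6 null/Apc null (-0.16). The batch count of 1977 genes became 873 without a trend and 0 without the genotype in the model (2432 at an unadjusted limma p under 0.05). Causes of these changes were not tested beyond what their construction shows. Leaving out an array could not be run for the batch comparison, which then has no residual degrees of freedom. Signals near the array floor limit, among others, Mep1b, Fabp2, Dpp4, Car4, Slc9a3, Apob, Treh, the dimmer Clps probe set and, in Apc null arrays, Cubn.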
